A study of Mus musculus with 2 samples.

Results

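The genes described here are 10 components of cell-to-cell junctions in mouse embryonic stem cells. They are the classical cadherins Cdh1, Cdh2 and Cdh3, the catenins Ctnna1, Ctnnd1 and Jup, the junction proteins Vezt and Tjp1, the adhesion molecule Epcam, and the apical scaffold Slc9a3r1. They were taken by symbol: every probe set whose platform annotation gives 1 gene, that gene being one of these, was used. This gave 23 probe sets of the 34945 that carry 1 gene name, and 10 genes of 18193. The study put E14 mouse embryonic stem cells, an established line, through lentiviral infection for 24 h and puromycin selection for 5 days, with an shRNA (a short hairpin RNA for knockdown) against Mll2, a histone H3 lysine 4 methyltransferase, in one population and a control shRNA in the other. Each population was read on 1 Affymetrix array. By the labels, the arrays differ in the shRNA, while the line, virus delivery and selection were shared. An effect of the shRNA cannot be told apart from other differences between the cultures, RNA samples or arrays. No difference below has a replicate check or a p-value. The labels give neither the hairpin sequences and their number nor whether clones were picked.

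Classical cadherins are transmembrane proteins that bind the same cadherin on the neighbouring cell in a calcium-dependent way. Their cytoplasmic tails carry catenins of the delta family near the membrane and beta-catenin or plakoglobin further along. Alpha-catenin connects beta-catenin or plakoglobin to actin. Embryonic stem cells hold their compact colonies together mainly through E-cadherin, and in epithelial-mesenchymal transition (EMT) cells typically exchange E-cadherin for N-cadherin.

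The values are log2 MAS5 signals. They were raised to a floor of 6.02 (a signal of 64.7, the 50th percentile of both arrays), and a probe set above it on at least 1 array counted as measured. Ratios are Mll2 shRNA over control shRNA, and a gene was represented by its brightest measured probe set. As a yardstick in place of replicates, the spread at a gene's level was taken from its 500 neighbours in mean level. It is the robust SD of their log2 ratios around their median, and holds real differences as well as noise. Ratios were compared with it from 0, not from that median. Of the targeted genes that the name Mll2 can mean, Kmt2d had a signal of 335 with the Mll2 shRNA and 736 with the control, a log2 ratio of -1.14, and Kmt2b had 852 and 901, a log2 ratio of -0.08. All 10 embryonic stem cell markers on the list were measured on both arrays, with a summed signal of 88287 and 90960.5. Of 10 fibroblast markers, 4 were measured, and their summed signal was 652 with the Mll2 shRNA and 622 with the control. Dcn, Lum, Pdgfra, Thy1, Postn and Fbn1 were not above the floor on either array or had no probe set naming them alone.

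With the Mll2 shRNA, N-cadherin (Cdh2) and vezatin (Vezt) were higher by 2-fold or more, and Slc9a3r1 was lower by 2-fold or more. E-cadherin (Cdh1) was lower by a small amount. The catenins, Tjp1 and Epcam differed little in the probe set used. In all, 2 of 10 genes reached 2-fold upward, where 1.47% of 11805 measured genes did, and 1 of 10 downward, where 0.983% did. At the level of probe sets, 2 of 19 measured ones reached 2-fold upward, against 1.34% of 20894, and 3 of 19 downward, against 0.857%. The 3 downward were all probe sets of 1 gene, Slc9a3r1, so they are not separate cases. Vezt and Slc9a3r1 were already known to stand among the largest differences when the genes were chosen, so these shares describe the choice too. The median log2 ratio of the 10 genes was -0.10, and that of all measured genes was 0.03. In bulk RNA, a smaller share of cells with a transcript and less of it per cell cannot be told apart.

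**Figure D1:**
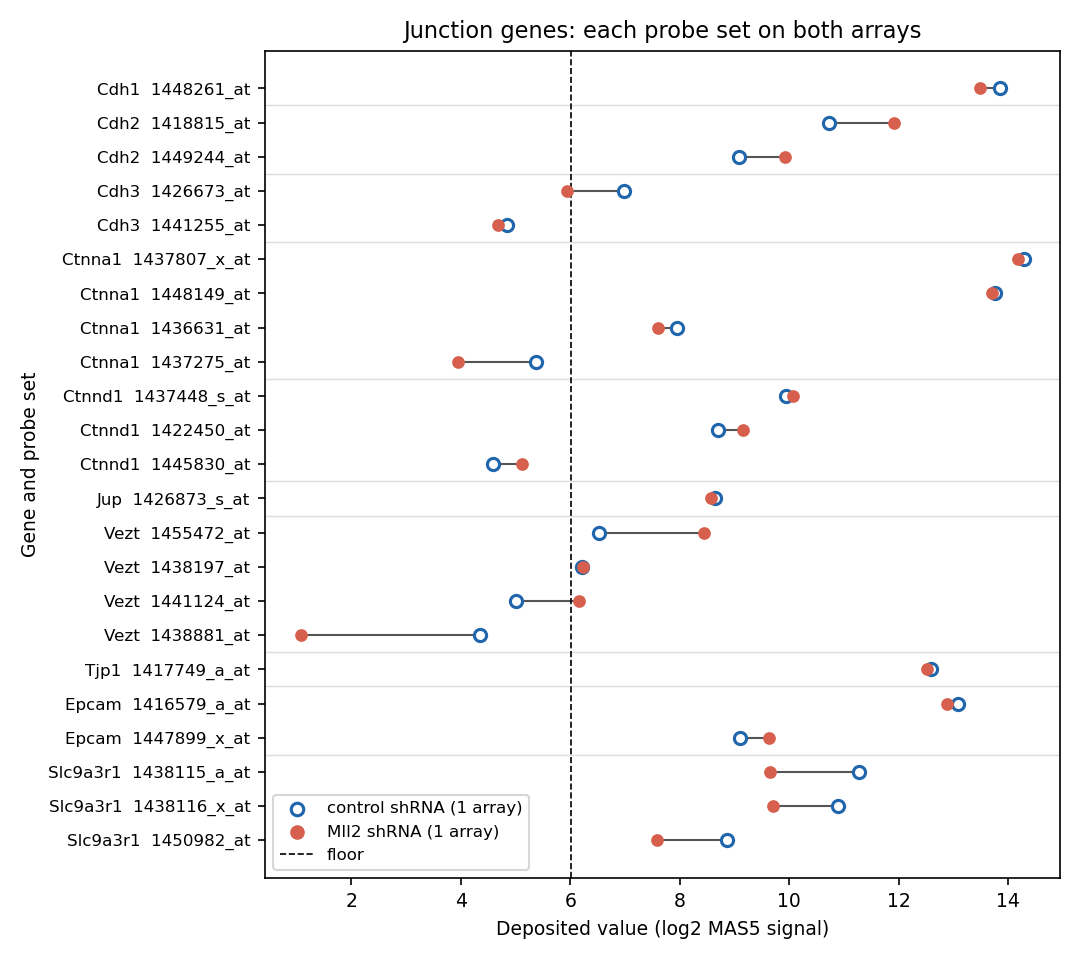
Deposited log2 MAS5 signal of each of the 23 probe sets (rows, grouped by gene) on the control shRNA array (open circles) and the Mll2 shRNA array (filled circles), with the floor of 6.02 as a dashed line. Both Cdh2 probe sets are higher and all 3 Slc9a3r1 probe sets lower in the Mll2 shRNA array, whereas the 3 measured Vezt probe sets differ widely in size and the one that is lower does not reach the floor.

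Among the cadherins, Cdh2 differed most. Cdh2 encodes N-cadherin, the classical cadherin of neural and mesenchymal cells. Its brightest probe set (1418815_at) gave a signal of 3849 with the Mll2 shRNA and 1687 with the control, 2.28-fold higher, or 1.19 on the log2 scale. The spread at that level was 0.28, and 2 of its 500 neighbours in level had a higher ratio. The second probe set (1449244_at) gave 969.7 and 545, a log2 ratio of 0.83 that was short of 2-fold. Both probe sets were higher with the Mll2 shRNA and averaged 1.01 ± 0.25 (SD over 2 probe sets), but they were designed from 1 transcript record and were read on the same arrays.

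Cdh1 encodes E-cadherin, and 1 probe set (1448261_at) measured it. Its signal was 11440.2 with the Mll2 shRNA and 14826 with the control, 1.30-fold lower, a log2 ratio of -0.37. Although small, this difference was larger than the spread of 0.17 among genes of its level, and 25 of its 500 neighbours lay lower. Cdh3 encodes P-cadherin, a relative found at the basal side of stratified epithelia and in placenta. It was near the detection limit, with a signal of 61.8 with the Mll2 shRNA, under the floor, and 127 with the control (1426673_at). The ratio was therefore a bound, at least 1.96-fold lower, and the other Cdh3 probe set (1441255_at) did not reach the floor, at 25.6 and 28.7. The sets for Cdh1 and Cdh2 thus lay on opposite sides of 0, with Cdh3 on the side of Cdh1.

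The catenins showed small differences. Ctnna1 encodes alpha-catenin, the link between the cadherin complex and actin. Its brightest probe set (1437807_x_at) had a signal of 18466 with the Mll2 shRNA and 19939 with the control, a log2 ratio of -0.11 within the spread of 0.15. The other sets above the floor gave -0.06 (1448149_at) and -0.36 (1436631_at), an average of -0.17 ± 0.16 (SD over 3 probe sets). A last one (1437275_at) did not reach the floor on either array. Ctnnd1 encodes a catenin of the delta family, which stabilises cadherins at the membrane. It had 1079 with the Mll2 shRNA and 986 with the control (1437448_s_at), a log2 ratio of 0.13 within the spread of 0.27. The second set (1422450_at) gave 573 and 415, a log2 ratio of 0.47, and both sets were higher with the Mll2 shRNA (mean 0.30 ± 0.24, SD over 2 probe sets). A further set (1445830_at) did not reach the floor either. Jup encodes plakoglobin, the catenin shared by adherens junctions and desmosomes. Its signals were 379.6 and 401 (1426873_s_at), a log2 ratio of -0.08 with a spread of 0.34. Beta-catenin itself (Ctnnb1), which is outside the 10 genes, had 20504 and 19294, a log2 ratio of 0.09 with a spread of 0.15.

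Of the other membrane and junction proteins, Tjp1 encodes the tight junction scaffold also known as ZO1. Its signals were 5858 with the Mll2 shRNA and 6194 with the control (1417749_a_at), a log2 ratio of -0.08 that was within the spread of 0.20. Epcam encodes a homophilic adhesion molecule of epithelia that is also abundant in pluripotent cells. The brightest set (1416579_a_at) gave 7509 and 8656, a log2 ratio of -0.21 against a spread of 0.19. The second set (1447899_x_at) gave 789 and 548, a log2 ratio of 0.52. The sets went in opposite directions and averaged 0.16 ± 0.52 (SD over 2 probe sets), so no direction is given for Epcam.

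Vezt encodes vezatin, a transmembrane protein of adherens junctions that associates with the cadherin-catenin complex. The probe set used (1455472_at) had a signal of 350.5 with the Mll2 shRNA and 92.3 with the control, 3.80-fold higher, or 1.93 on the log2 scale. The spread at that level was 0.46, and 1 of its 500 neighbours lay higher. The control signal lay close above the floor of 64.7. The other probe sets did not show a difference of that size: 1438197_at gave 75.1 and 74.4, a log2 ratio of 0.01, and 1441124_at gave 72.0 and 32.1, above the floor on the Mll2 shRNA array only and therefore at least 1.11-fold higher. The dimmest set (1438881_at), with 2.12 and 20.4, was under the floor throughout. The 2 sets above the floor on both arrays averaged 0.97 ± 1.35 (SD), an SD larger than the mean. What each Vezt probe set detects was not tested.

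Slc9a3r1 encodes a PDZ-domain scaffold, also called NHERF1 or EBP-50, that ties membrane proteins to ezrin and the actin cortex at the apical surface. It was the member with the largest difference downward. The brightest set (1438115_a_at) gave a signal of 803 with the Mll2 shRNA and 2479 with the control, 3.09-fold lower, or -1.63 on the log2 scale. This was 6.02 times the spread of 0.27, and 0 of its 500 neighbours in level lay lower. The others gave 839 and 1899.7, a log2 ratio of -1.18 (1438116_x_at), and 191 and 467, a log2 ratio of -1.29 (1450982_at). Every probe set was thus lower by 2-fold or more, with a mean of -1.37 ± 0.23 (SD over 3 probe sets). They came from 2 transcript records, since 1438115_a_at and 1438116_x_at share one.

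**Figure D2:**
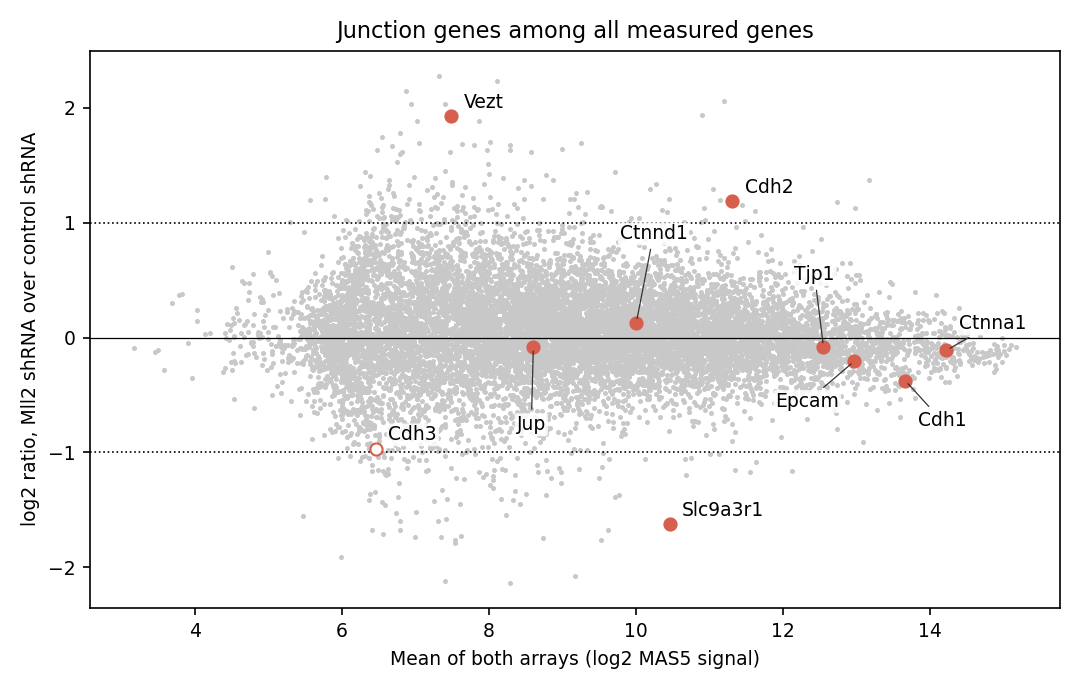
Log2 ratio (Mll2 shRNA over control shRNA) against the mean of both arrays (log2 MAS5 signal) for 11805 measured genes (grey) and the 10 junction genes (red, with the open circle for Cdh3, whose ratio is a bound). Dotted lines mark 2-fold. Cdh2 and Vezt lie above nearly all genes of their level (2 and 1 of 500 neighbours higher), Slc9a3r1 lies below all 500 of its neighbours, and Cdh1 lies in the lower part of the cloud.

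Against the spread at their level, 2 of the 10 genes lay above it (Cdh2 and Vezt), 4 below it (Slc9a3r1, Cdh3, Cdh1 and Epcam) in the probe set used, and 4 within it (Ctnna1, Ctnnd1, Jup and Tjp1). Of all measured genes, 33.5% lay outside their spread in either direction. The ratio of Cdh1 was 2.15 times its spread, that of Cdh2 was 4.33 times and that of Vezt 4.19 times. Epcam was just outside, at 1.09 times, and 99 of its 500 neighbours lay lower. With lowess scaling it was at -0.15 and with quantile normalization at -0.16, both smaller than its spread of 0.19. These comparisons start from 0, although the neighbours were not always centred there. Tjp1, at -0.08, had 208 of 500 neighbours lower, and Ctnna1, at -0.11, had 224.

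Upstream sequence is shown for Slc9a3r1, lower in all its probe sets, for Vezt, whose probe sets disagree in size, and, for comparison, for Epcam, an epithelial surface marker with no settled direction here. RefSeq promoter windows of build GRCm38.p6 matched 6 of the 10 genes. Cdh1, Cdh2, Cdh3 and Ctnna1 had no window, so motifs upstream of the cadherins were not examined. The 250 bases before the annotated start are printed 5′ to 3′ on the gene's strand. Capitals mark each match, on either strand, to any of 3 motifs. The E-box CAGGTG, which EMT repressors of the Snail and ZEB families can bind, reads CACCTG on the other strand. The CCAAT box reads ATTGG on the other strand, and the GC box GGGCGG reads CCGCCC there. No matches of different motifs overlapped.
Slc9a3r1, chr11:115163091-115163340, plus strand: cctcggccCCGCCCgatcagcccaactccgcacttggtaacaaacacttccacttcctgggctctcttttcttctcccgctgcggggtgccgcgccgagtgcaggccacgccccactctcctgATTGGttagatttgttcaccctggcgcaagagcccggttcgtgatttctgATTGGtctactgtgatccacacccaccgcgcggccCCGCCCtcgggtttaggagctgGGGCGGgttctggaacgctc
Vezt, chr10:94035800-94036049, minus strand: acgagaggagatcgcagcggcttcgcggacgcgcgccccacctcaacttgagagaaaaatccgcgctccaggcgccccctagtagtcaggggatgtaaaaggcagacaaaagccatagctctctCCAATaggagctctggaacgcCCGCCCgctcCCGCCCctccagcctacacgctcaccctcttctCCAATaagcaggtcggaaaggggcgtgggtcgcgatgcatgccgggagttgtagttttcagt
Epcam, chr17:87635729-87635978, plus strand: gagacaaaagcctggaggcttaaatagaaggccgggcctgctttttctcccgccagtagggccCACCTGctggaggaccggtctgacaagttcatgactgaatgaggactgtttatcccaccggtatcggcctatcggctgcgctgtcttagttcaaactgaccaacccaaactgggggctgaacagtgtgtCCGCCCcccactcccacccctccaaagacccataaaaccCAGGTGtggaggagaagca

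The Epcam window held 2 E-boxes, 187 and 19 bases before the start, with 1 GC box and 0 CCAAT matches. The Slc9a3r1 window held 0 E-boxes, 2 CCAAT matches and 3 GC boxes, and the printed Vezt window 0, 2 and 2. RefSeq lists a second Vezt start downstream, whose window, overlapping the printed one, held 0, 2 and 3. The windows of Ctnnd1, Jup and Tjp1, which are not printed, held no E-box of these letters either. Over the promoters of 27025 genes, 17.1% held the E-box, 34.5% a CCAAT match and 32.9% a GC box in the same 250 bases. These matches describe letters in a window, and binding was not measured.

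Companion genes in 8 lists, with no member in common with the 10, were then read for the rest of the junction machinery and for the epithelial and mesenchymal programmes around it. Of 86 listed genes, 70 were measured. Of these, 1 reached 2-fold upward and 1 downward, 2.86% together, where 2.45% of all measured genes did in either direction. Their median log2 ratio was -0.08, with 29 above 0 and 41 below. Of all 11805 measured genes, 6314 lay above 0 and 5491 below, for comparison with the counts in each list that follows.

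The other cadherins listed were mostly not measured. Of 8 listed, 3 were (Cdh4, Cdh5 and Cdh10), with 0 at 2-fold. Cdh4, R-cadherin, had a signal of 68.9 with the Mll2 shRNA and 108 with the control, a log2 ratio of -0.65 against a spread of 0.57. Cdh10 was at 0.25, and its second probe set was a bound at -0.50. Outside this list, and named after their values were seen, Cdh9 was at 1.01, just past 2-fold, and Cdh13 at 0.56. Of 15 other catenins and adherens junction partners, 14 were measured, 0 reached 2-fold, and the median was 0.09 with 10 above 0. The largest differences there were in the neural delta-catenin Ctnnd2, at 0.62 against a spread of 0.49, and in the adhesion molecule Nectin1, at least 1.58-fold lower.

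Tight junction genes lay slightly low. Of 13 listed, 11 were measured, 8 of them below 0, with a median of -0.20 and 0 at 2-fold. Cgn, which encodes cingulin, a cytoplasmic plaque protein of tight junctions, had 517 with the Mll2 shRNA and 893 with the control, a log2 ratio of -0.79. The spread there was 0.32, and 3 of its 500 neighbours in level lay lower. Its second probe set was a bound at -0.16, and the mean over both was -0.47. The endothelial claudin Cldn5 was at -0.62 with a spread of 0.56.

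Desmosome and keratin genes had a median of -0.22 over 10 measured of 12 listed, with 8 below 0. Periplakin (Ppl), a linker of keratin filaments to desmosomes, was 2.32-fold lower, with signals of 159.7 and 370.2, and 2 of its 500 neighbours in level lay lower. It rests on 1 suffixed probe set, and its log2 ratio of -1.21 became -0.95 with a pseudocount equal to the floor and -0.57 with the floor at the 70th percentile, both short of 2-fold. The paired keratins of simple epithelia were lower too. Krt8 had 9199.9 with the Mll2 shRNA and 13635 with the control, a log2 ratio of -0.57 against a spread of 0.18, and its other probe sets ran from -0.55 to -0.50. Krt18 had 11117 and 14840.1, a log2 ratio of -0.42 with a spread of 0.17. Krt19, named after its values were seen, was at -0.65 with a spread of 0.28. Against these, the desmosomal cadherin Dsc2 was at 0.56 with a spread of 0.33, although its second probe set gave -0.21, and the envelope protein gene Evpl was at 0.50 with a spread of 0.46. Both were named after their values were seen.

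The binding partners of Slc9a3r1 showed no difference of its size. Of 8 ezrin-family and NHERF-family genes, 6 were measured, 0 reached 2-fold, and the median was -0.01. Ezrin (Ezr) had 5827 with the Mll2 shRNA and 5871 with the control, a log2 ratio of -0.01. The paralogue Slc9a3r2 was at 0.56 against a spread of 0.48, but its other probe sets ran from -0.24 to 0.59. Podxl, a sialomucin that binds this scaffold, was at -0.34 with a spread of 0.28. The 11 polarity genes were all measured, 0 reached 2-fold, and the median was 0.0024. Pard6b was at -0.47 in both of its probe sets, and Crb3, an apical determinant, was at -0.36, with -0.61 and -0.57 in the others.

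Regulators of the epithelial state were the most one-sided of the 8 lists: all 8 measured of 10 listed were below 0, from -0.69 to -0.17, with a median of -0.57 and 0 at 2-fold. The median was -0.43 with the pseudocount and -0.31 with the floor at the 70th percentile, where 7 genes were measured, all below 0. Esrp1, an epithelial splicing factor, had a signal of 1145 with the Mll2 shRNA and 1852 with the control, a log2 ratio of -0.69. The spread was 0.28, and 2 of its 500 neighbours in level lay lower. Its relative Esrp2 was at -0.67, with -0.73 in the second probe set. Named after their values were seen, Grhl2, a transcription factor that activates E-cadherin and other junction genes, was at -0.63 (second probe set -0.75), and the membrane protease gene St14 at -0.59.

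EMT regulators and mesenchymal markers leaned the other way, with a median of 0.35 over 7 measured of 9 listed, 4 above 0 and 3 below. This median became -0.02 when the probe sets that can match several transcripts (suffixed s, x or a) were left out. The counts were then 3 above 0 and 4 below. Snai2, named after its values were seen, was at 0.52 against a spread of 0.45 in a suffixed probe set. Its second, unsuffixed probe set gave -0.10, so no direction is given for Snai2. Zeb1, a repressor of E-cadherin, was the gene at 2-fold, with 389 against 179, 2.17-fold higher, or 1.12 on the log2 scale against a spread of 0.37. It was measured by 1 probe set, and was no longer at 2-fold with the pseudocount (0.89) or with the floor at the 70th percentile (0.64). Vim, which encodes the mesenchymal filament protein vimentin, had 16382 with the Mll2 shRNA and 12423 with the control, a log2 ratio of 0.40 against a spread of 0.17, and its other probe sets gave 0.51 to 0.60. Snai1 was not measured. Named after their values were seen, fibronectin (Fn1) was at 0.35 in the probe set used and 0.36 in the second, and Zeb2 was at -0.02 in the probe set used but at 0.20 to 1.14 in 3 others. Twist1 was at -0.16 within its spread of 0.44, and S100a4 was lower by at least 1.33-fold.

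**Figure D3:**
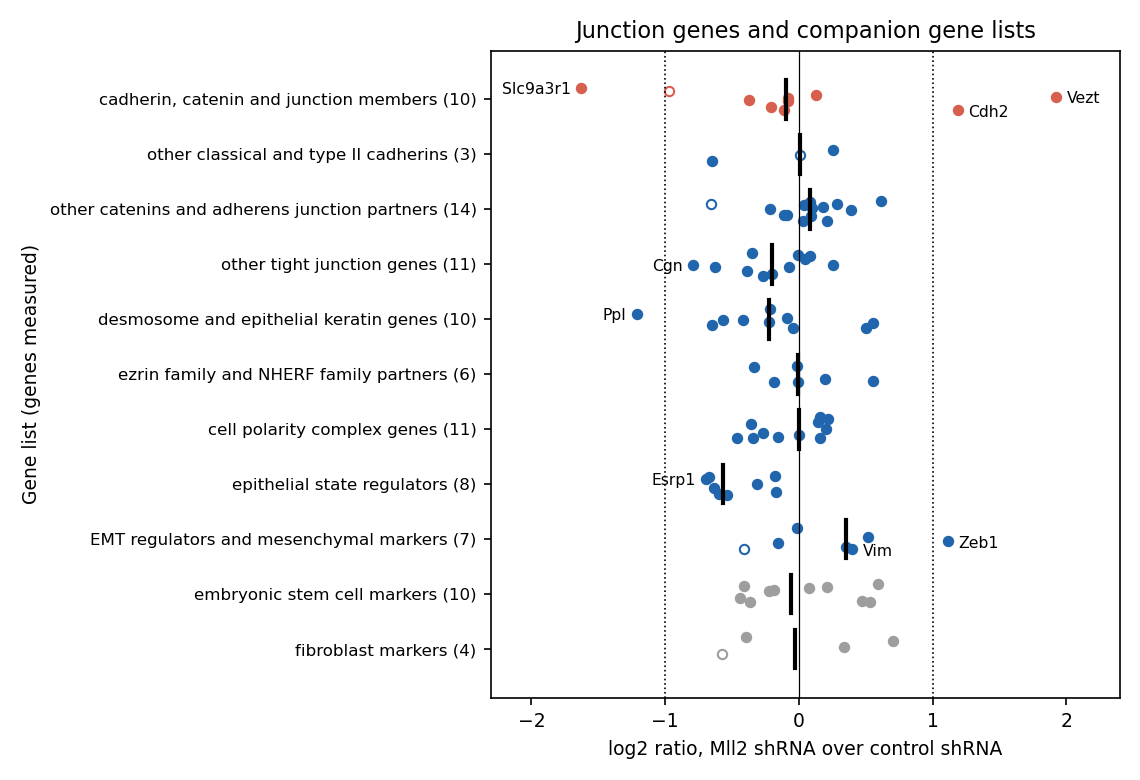
Log2 ratio (Mll2 shRNA over control shRNA) of each measured gene in the 10 junction genes (red), the 8 companion lists (blue) and the embryonic stem cell and fibroblast marker lists (grey). Black bars are list medians, open circles are bounds, dotted lines mark 2-fold, and the number measured is in brackets. All 8 epithelial state regulators lie below 0. Vezt, Cdh2 and Zeb1 lie beyond 2-fold upward, and Slc9a3r1 and Ppl lie beyond 2-fold downward.

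The lists were mixed. Of all 11805 measured genes, 2275 lay above the spread at their level and 1680 below it. Among EMT and mesenchymal genes, 4 of 7 lay above it and 0 below it. The 4 include Snai2, whose second probe set was at -0.10. Among desmosome and keratin genes, 2 of 10 lay above and 4 below, and among epithelial state regulators 0 of 8 lay above and 6 below. The fibroblast markers, given here because they could mark other cells in the culture, had low signals where measured: Col1a2 was at 0.70 with signals of 185 and 114, Col1a1 at least 1.49-fold lower, and the list median was -0.03. The embryonic stem cell markers went both ways, with 4 of 10 above their spread, 4 below it and a median of -0.06. Klf4 was at 0.59 and Esrrb at 0.53, with -0.22 to 0.75 in the other Esrrb probe sets. Nanog was at 0.47 and Zfp42 at 0.21. Pou5f1 was at -0.44, Utf1 at -0.41, Tdgf1 at -0.37 and Dppa5a at -0.22. All of these markers but Klf4 and Esrrb were named after their values were seen. The part of either cell state in the junction values was not tested.

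The ratios of the 10 genes were computed again under 10 other ways of scaling, flooring and summarising probe sets. Cdh2 stayed between 1.01 and 1.31, Slc9a3r1 between -1.65 and -1.29 and Cdh1 between -0.37 and -0.26. Vezt ran from 0.49 to 2.04. Scaling on the bacterial spike-in controls moved the median of all genes from 0.03 to 0.14, and under it Ctnna1, Jup and Tjp1 lay just above 0 but below that median.

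**Figure D4:**
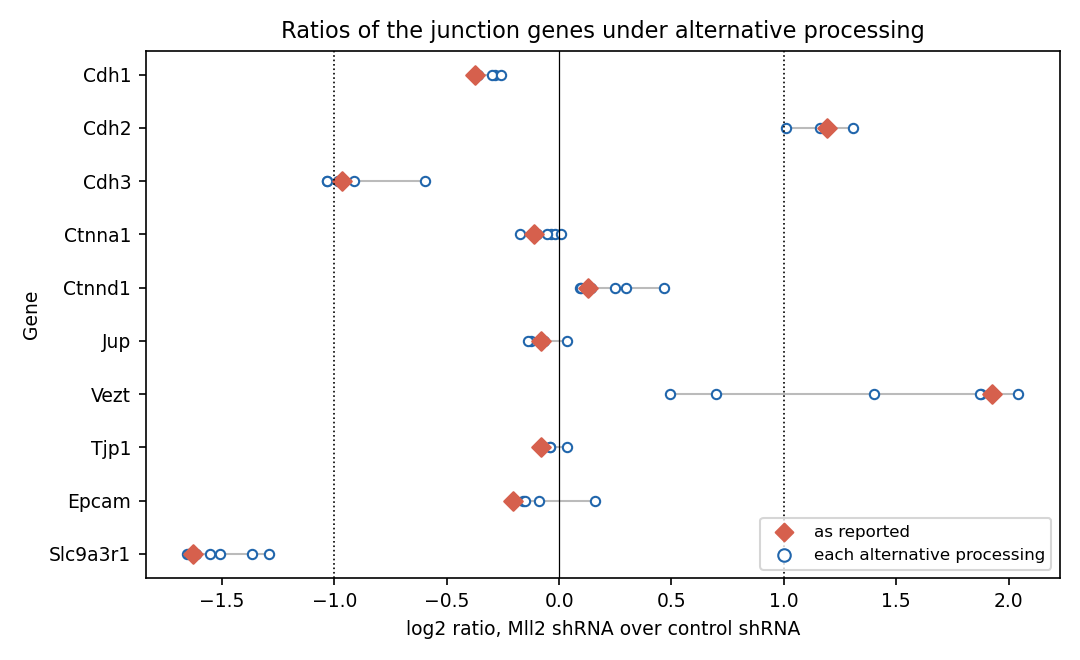
Log2 ratio (Mll2 shRNA over control shRNA) of each junction gene as reported (red diamonds) and under each alternative that could be computed (open circles), with dotted lines at 2-fold. Cdh2 and Slc9a3r1 stay beyond 2-fold throughout, and Vezt spans 0.49 to 2.04.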

How the data were processed

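RNA from 1 array per group was analysed: E14 cells with an shRNA against Mll2 and E14 cells with a control shRNA. The deposited table holds log2 values for 45101 probe sets per array, which the authors made with MAS5, per the submitters' processing notes. The notes name neither its version nor any step after it. MAS5 subtracts mismatch probes and scales each array, which makes dim probe sets noisy. The 2% trimmed mean of the unlogged values was 500.0 on both arrays. Detection calls were not used here, and the number of arrays limits the precision. For RNA quality, beta-actin controls differed between their 3′ and 5′ ends by 0.77 (log2) with the Mll2 shRNA and 0.96 with the control. The Gapdh controls differed by 0.058 with the Mll2 shRNA and 0.046 with the control.

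After 64 control probe sets were set aside, 34945 had 1 gene, 932 several and 9160 none in the platform annotation. Symbols of 34741 were updated by Entrez number to RefSeq GRCm38.p6. No test was possible. The steps were tested on simulated data with the same noise at all levels and known changes only in genes well above the floor. Changes in genes near the floor were not covered by that test.

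The genes and lists were chosen with earlier results of these data known. Named by rule were the 10 genes with all probe sets, in each companion list the genes at 2-fold or else the 2 furthest from 0, a few fixed genes (Ctnnb1, Krt8, Krt18, Ezr, Snai1, Zeb1, Vim) and the targets Kmt2d and Kmt2b. Alternatives were median centring, quantile normalization, lowess, spike-in scaling, a pseudocount, no floor, a floor at the 30th or the 70th percentile, the mean over probe sets, unsuffixed probe sets, and thresholds of 1.5-fold and 3-fold. Python 3.11.15, numpy 2.4.6, pandas 2.3.3 and statsmodels 0.14.6 were used.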

Additional observations from a re-analysis of the deposited data

How the results depend on the processing

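With 1 array per group, a value was taken as moved when it shifted by more than the spread at its level, or for a median by more than 0.09. Of 96 ratios of the 10 genes recomputed under 10 alternatives, 90 shifted by less, 6 by more, and 0 called ratios changed sign. Of the 6, Vezt was at 0.49 with the floor at the 70th percentile, 1.40 with a pseudocount and 0.70 as a mean over probe sets, Epcam was at 0.16 as a mean, and without suffixed probe sets Ctnnd1 was at 0.47 and Slc9a3r1 at -1.29. Genes at least 2-fold lower numbered 1 as reported and 2 with the floor at the 30th percentile, with no floor or at 1.5-fold, since Cdh3 lies next to the threshold. Genes at least 2-fold higher numbered 2 as reported and 1 with the floor at the 70th percentile, with the mean over probe sets or at 3-fold. Probe sets at least 2-fold lower numbered 3 as reported, 6 with no floor, 4 with the floor at the 30th percentile or at 1.5-fold, 2 with the floor at the 70th, and 1 without suffixed probe sets or at 3-fold. Those at least 2-fold higher numbered 2 as reported, 1 with the floor at the 70th percentile or at 3-fold, and 3 with the floor at the 30th percentile, with no floor or at 1.5-fold. The median of the 10 genes was -0.10 as reported and 0.021 with spike-in scaling, which lifts all genes alike. Of all differing genes, 59.9% were higher as reported and 75.9% with spike-in scaling. Without suffixed probe sets, Jup, Epcam and Tjp1 gave no value, and Cdh3 gave none with the floor at the 70th percentile. No paired analysis was possible because each group had 1 array. Signals near the floor limit what can be said of Cdh3 and Vezt.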
